A study of Arabidopsis thaliana with 6 samples.

Results

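The plasma membrane receptor kinases of cambium and CLE peptide signalling were followed through a short activation of auxin response factor 5 in the stem of *Arabidopsis thaliana*. Members were taken by gene identifier and were *PXY* (AT5G61480), its relatives *PXL1* (AT1G08590) and *PXL2* (AT4G28650), *MOL1* (AT5G51350), *RUL1* (AT5G05160), *CLV1* (AT1G75820), and *BAM1* (AT5G65700), *BAM2* (AT3G49670) and *BAM3* (AT4G20270). These are 9 of the 33318 named gene entries that were counted, and all 9 passed the filter on low counts. All 6 libraries came from the second internode of plants that carry *pPXY:GR-ARF5∆III/IV* in the Columbia (Col-0) background. The transgene, which treated and control plants both carry, uses the *PXY* promoter, active in the stem cells of the cambium, to express ARF5 without the domains contacted by AUX/IAA repressors and fused so that it enters the nucleus once dexamethasone (Dex) is given. Bolted plants were dipped in mock solution (3 libraries) or in 15 µM Dex (3 libraries) and harvested after 3 h, and Dex-treated plants without the transgene were not analysed here, so that an effect of Dex itself cannot be told apart from that of the activated protein. The methods give 3 plants for each replicate in the section on RNA preparation, whereas the deposited design speaks of a pool of 3 RNA samples, so the p-values measure the spread between these libraries.

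All 9 genes encode kinases with leucine-rich repeats outside the cell, and PXY, CLV1 and BAM3 are among those known to bind small secreted peptides. In the stem, the TDIF peptides made by phloem cells reach PXY on cambium stem cells, where they keep the cells dividing and hold back their differentiation into xylem, in part through the homeobox gene *WOX4*. CLV1 and the BAM receptors are known from the control of stem cell number in the shoot tip and from phloem formation in the root, where BAM3 perceives CLE45. MOL1 and RUL1 were named for opposite effects on the cambium, MOL1 as a repressor and RUL1 as a promoter of its activity.

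Of the 9 receptor kinase genes, *RUL1*, *BAM2* and *BAM3* rose after Dex and none fell. The level of *RUL1* was 2.35-fold, that of *BAM2* 1.95-fold and that of *BAM3* 1.34-fold the mock level, and *PXY* itself was at 0.93-fold and missed the threshold. Thus 3 of 9 passed as higher at an adjusted p under 0.05 (quasi-likelihood test of edgeR, adjusted over the 19347 genes tested), where 4.63% of all genes tested passed as higher, 2.07% as lower and 6.69% in either direction. At an unadjusted p under 0.05, 3 were higher and 1 (*PXL2*) was lower, where 22.6% of all genes tested fell under this value, and DESeq2 and limma-voom also called 3 higher and 0 lower. The count was 2 in 8 of 16 alternatives, in which *BAM3* was not called. The median log2 fold change of the 9 genes was -0.03, beside -0.01 over all genes tested. In 5 of the 9 genes the Dex and mock libraries did not overlap in TMM-scaled CPM, with Dex above mock in *RUL1*, *BAM2* and *BAM3* and below mock in *PXL2* and *BAM1*, where 15.2% of all genes tested lay apart with Dex higher and 12.1% with Dex lower. *RUL1* and *BAM3* are on a gene list that the study drew in part from these libraries, so that their direction here is not independent evidence. Transcript levels below are CPM (read counts scaled to library size) adjusted by TMM factors, and a level in this bulk tissue cannot tell fewer expressing cells from less RNA per cell.

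The sequences just upstream of the 3 genes that rose are shown because ARF proteins are known to bind the auxin response elements TGTCTC and TGTCGG. Each run covers 250 bases before the annotated gene start on the gene's own strand (TAIR10.1, RefSeq), and capitals mark either element on either strand (the reverse complements are GAGACA and CCGACA).
*RUL1*, chr5:1527518-1527767, plus strand: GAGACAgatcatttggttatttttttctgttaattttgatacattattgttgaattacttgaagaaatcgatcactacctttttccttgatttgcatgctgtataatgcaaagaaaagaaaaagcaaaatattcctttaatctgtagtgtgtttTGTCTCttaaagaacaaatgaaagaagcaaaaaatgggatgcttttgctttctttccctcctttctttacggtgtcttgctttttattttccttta
*BAM2*, chr3:18417318-18417567, plus strand: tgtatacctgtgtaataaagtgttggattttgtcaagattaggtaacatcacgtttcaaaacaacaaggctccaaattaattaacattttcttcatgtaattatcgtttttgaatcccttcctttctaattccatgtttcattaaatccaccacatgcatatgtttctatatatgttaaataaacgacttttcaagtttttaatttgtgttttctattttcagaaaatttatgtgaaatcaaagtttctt
*BAM3*, chr4:10949323-10949572, plus strand: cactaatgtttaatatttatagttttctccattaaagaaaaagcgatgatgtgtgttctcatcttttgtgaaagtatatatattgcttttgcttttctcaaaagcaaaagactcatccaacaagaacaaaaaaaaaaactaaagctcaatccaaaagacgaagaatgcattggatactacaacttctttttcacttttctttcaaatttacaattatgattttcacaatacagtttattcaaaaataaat
The run upstream of *RUL1* held TGTCTC at 2 places, on the minus strand beginning 250 bases before the start and on the plus strand beginning 96 bases before it. Neither element was found in this window of the other 8 genes, which says only that these letters are not in the window. The study found ARF5 binding in vitro at another element, CAGACA, upstream of *WOX4*. That element was not part of the search, and the window of *MOL1* holds it. Its share among all genes was not computed. Among 27443 protein-coding genes, 10.9% held TGTCTC and 4.16% held TGTCGG in a window of the same length, and 14.7% held either. A match describes the sequence and was not tested as a binding site.

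**Figure D1:**
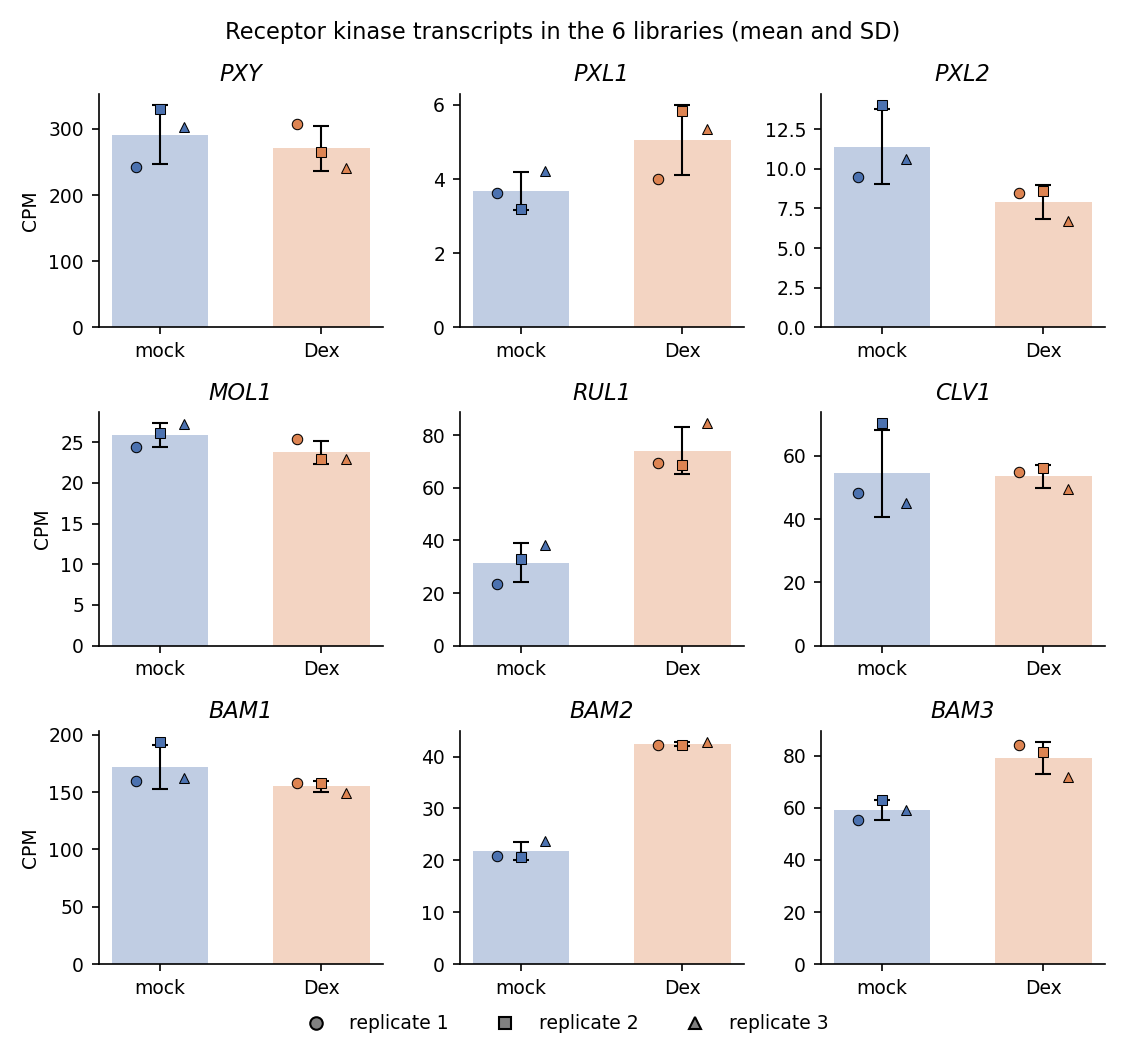
CPM (vertical axes, each from 0) of the 9 receptor kinase genes in the 3 mock and 3 Dex libraries, with bars for group means, error bars for the SD (n = 3) and symbols for the replicates. The Dex libraries lie above all mock libraries for *RUL1*, *BAM2* and *BAM3*, below them for *PXL2* and *BAM1*, and overlap with them for the other 4 genes.

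*PXY* (chr5:24724337-24728244, minus strand), the TDIF receptor of the cambium, was the most abundant of the 9. Its level was 242, 330 and 303 CPM in mock replicates 1, 2 and 3 and 308, 265 and 240 CPM in the Dex replicates. The highest and the second lowest values were both from mock libraries, and the groups overlapped over most of their range. The means were 291 ± 45.3 CPM in mock and 271 ± 34.2 CPM in Dex (SD, n = 3), a log2 fold change of -0.11 ± 0.15 (SE, edgeR adjusted p = 0.718). The 95% interval of the fold ran from 0.737 to 1.17, so that changes of *PXY* within those bounds remain possible. All reads of *PXY* were unique, and 1 to 8 per library fell in its intron.

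*PXL1* (chr1:2718538-2722280, plus strand) and *PXL2* (chr4:14143958-14147537, minus strand) encode kinases named as PXY-like, which act together with PXY in vascular organisation. Both were scarce. *PXL1* was at 3.61, 3.19 and 4.22 CPM in mock and at 4.0, 5.83 and 5.35 CPM in Dex, so that a single Dex library lay within the mock range. *PXL2* was at 9.48, 14.1 and 10.6 CPM in mock and at 8.45, 8.58 and 6.70 CPM in Dex, with every Dex library below every mock library. Neither passed the edgeR test, with log2 fold changes of 0.46 ± 0.24 (SE, adjusted p = 0.290) for *PXL1* and -0.53 ± 0.19 (SE, adjusted p = 0.143) for *PXL2*. The 95% interval of the fold was 0.948 to 2.00 for *PXL1* and 0.512 to 0.937 for *PXL2*. The 2 genes thus differed in the sign of their estimates, and their reads came with a limit that the rest of the family did not share.

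Most reads of *PXL1* and *PXL2* were not unique in the mapping of the authors. Unique reads made up 3.06% to 10% of the reads of *PXL1* and 8.86% to 21.9% of those of *PXL2*, against 73.0% to 82.1% for *BAM2* and 100% for the other 6 genes. No window of 50 bases in any of the 9 genes, the length of a read, occurred again elsewhere in the TAIR10.1 genome. The 3 genes with non-unique reads are those that overlap a long non-coding entry on the opposite strand, AT1G08592 over 88.0% of the exon bases of *PXL1*, AT4G28652 over 78.4% of those of *PXL2* and AT3G49668 over 21.0% of those of *BAM2*. The sources used here do not say if counting took account of strand, so reads of a gene and of its opposite-strand entry cannot be told apart, and the part of this overlap in the non-unique reads was not tested.

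The opposite-strand entries themselves were listed with few reads. AT1G08592 had 20, 11 and 27 reads in mock and 13, 12 and 13 in Dex, none of them unique. AT4G28652 had 70, 15 and 9 reads in mock and 4, 26 and 44 in Dex, a spread that did not follow the treatment. AT3G49668 had 0 to 7 reads in any library. With the reads of each gene and its opposite-strand entry added together, an alternative chosen after seeing the data, the log2 fold change was 0.29 ± 0.23 (SE) for *PXL1* (edgeR adjusted p = 0.496) and -0.55 ± 0.16 (SE) for *PXL2* (edgeR adjusted p = 0.0748), still short of the threshold. On unique reads alone *PXL1* had 15 reads in mock and 36 in Dex over the 3 libraries of each group. Scaled to all unique reads in genes, this is a ratio of 2.09 with an exact 95% binomial interval of 1.11 to 4.10 that covers counting error only. *PXL2* had 113 and 85 unique reads, a ratio of 0.654 (0.488 to 0.875, counting error only), and its adjusted p on unique reads was 0.415 in edgeR.

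**Figure D2:**
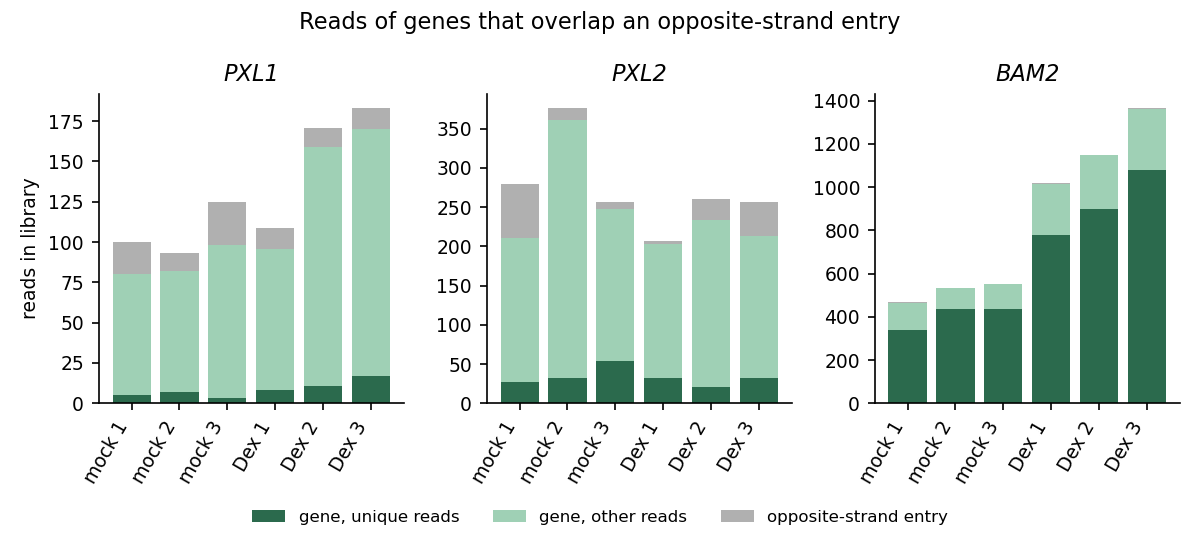
Reads in each library (vertical axes, from 0) for *PXL1*, *PXL2* and *BAM2*, split into unique reads of the gene, its other reads and the reads listed for the entry on the opposite strand. Unique reads are the small part of *PXL1* and *PXL2* (at most 21.9%) and the large part of *BAM2* (at least 73.0%), whose unique and other reads are both higher in the Dex libraries.

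*MOL1* (chr5:20867599-20870848, minus strand), whose product limits cambium activity, did not pass the test. It was at 24.3, 26.1 and 27.2 CPM in mock and at 25.4, 22.9 and 23.0 CPM in Dex. The 3 mock values and the Dex value of replicate 1 lay together and the other 2 Dex values just beneath them. The log2 fold change was -0.13 ± 0.11 (SE, edgeR adjusted p = 0.528), with a 95% interval of the fold from 0.776 to 1.08.

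*RUL1* (chr5:1527768-1530205, plus strand), which encodes a shorter kinase that favours cambium activity, had the largest fold of the 9. It was at 23.4, 33.1 and 38.3 CPM in mock and at 69.4, 68.5 and 84.6 CPM in Dex. The lowest Dex library stood well above the highest mock library, although the mock libraries themselves differed from each other. The means were 31.6 ± 7.53 CPM and 74.2 ± 9.03 CPM (SD, n = 3), a log2 fold change of 1.23 ± 0.18 (SE, edgeR adjusted p = 0.00551) and a fold of 2.35 with a 95% interval of 1.78 to 3.09. The call held in all 16 alternatives, with log2 fold changes from 1.05 to 1.39. All its reads were unique, and its annotated end overlaps that of AT5G05170 on the opposite strand by 74 bases, 3.16% of its exon bases.

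Because MOL1 and RUL1 are known for opposing roles, their ratio was taken within each library, where scaling between libraries drops out. The log2 ratio of *RUL1* to *MOL1* reads was -0.05, 0.34 and 0.49 in mock and 1.45, 1.58 and 1.88 in Dex. In mock the 2 genes had similar read numbers, and in every Dex library *RUL1* was clearly ahead. The ratio rose by 1.38 on the log2 scale (1.64 ± 0.22 against 0.26 ± 0.28, SD), and that of *RUL1* to *PXY* by 1.35. With 3 libraries against 3, the exact permutation test (two-sided) gives at best p = 0.1, which both ratios reached (0.122 after adjustment over the 11 pairs compared). The pair ratios here and below use the same reads as the edgeR test and are not independent of its calls.

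*CLV1* (chr1:28463344-28466971, minus strand), the CLV3 receptor of the shoot stem cell niche, did not pass the test. It was at 48.2, 70.3 and 45.1 CPM in mock and at 54.8, 56.1 and 49.5 CPM in Dex. Mock replicate 2 was the highest of all 6 libraries and the other 2 mock libraries were the lowest, so that the Dex values lay between them. The log2 fold change was -0.03 ± 0.16 (SE, edgeR adjusted p = 0.940), and its sign turned to 0.20 without mock replicate 2 and to 0.02 without Dex replicate 3.

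*BAM1* (chr5:26281642-26285413, plus strand) and *BAM2* (chr3:18417568-18421263, plus strand) encode close relatives that act redundantly in meristems and anthers. *BAM1* was at 159, 194 and 162 CPM in mock and at 157, 158 and 149 CPM in Dex. Each Dex value was below the lowest mock value, but the gap between the nearest libraries was small beside the spread within mock, and in the deposited RPKM the groups overlapped (42.9 to 54.4 in mock and 41.1 to 45.5 in Dex). The log2 fold change of *BAM1* was -0.15 ± 0.11 (SE, edgeR adjusted p = 0.454), with a 95% interval of the fold from 0.759 to 1.07.

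*BAM2* was at 20.9, 20.7 and 23.7 CPM in mock and at 42.2, 42.2 and 42.9 CPM in Dex. The values were tight within each group and far apart between them. The means were 21.8 ± 1.70 CPM and 42.4 ± 0.388 CPM (SD, n = 3), a log2 fold change of 0.96 ± 0.10 (SE, edgeR adjusted p = 0.00112) and a fold of 1.95 with a 95% interval of 1.66 to 2.28. The call held in all 17 alternatives (log2 fold change 0.92 to 1.03). On unique reads alone the log2 fold change was 0.96 ± 0.11 (edgeR adjusted p = 0.00179), and with the opposite-strand entry added it was 0.95 ± 0.10 (edgeR adjusted p = 0.00115).

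*BAM1* and *BAM2* are the most alike of the 9 genes, so their sequences were compared. Their coding sequences were identical at 81.1% of 2982 aligned bases, against 61.7% for *PXL1* and *PXL2*, the next closest pair, and 44.1% for *PXY* and *RUL1*, the most distant. *PXY* was identical to *PXL2* at 53.6%, to *PXL1* at 50.3% and to *BAM1* at 52.1% of aligned bases. The longest run that both share is 41 bases, shorter than a read, at chr5:26284547-26284587 in *BAM1* and chr3:18420429-18420469 in *BAM2* (TAIR10.1, plus strand), and is shown in full.
*BAM1* and *BAM2*, shared run: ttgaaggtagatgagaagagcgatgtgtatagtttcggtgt
The log2 ratio of *BAM1* to *BAM2* reads was 2.93, 3.23 and 2.77 in mock and 1.90, 1.90 and 1.80 in Dex. Every Dex library lay below every mock library, with a difference of -1.11 (exact permutation p = 0.1, the smallest possible, and 0.122 adjusted over 11 pairs). *CLV1* to *BAM2* differed likewise by -0.97, and *CLV1* to *BAM1* by 0.14 with overlapping groups (exact permutation p = 0.4).

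*BAM3* (chr4:10949573-10953113, plus strand), the CLE45 receptor of root protophloem, rose by less than *BAM2*. It was at 55.3, 63.1 and 59.1 CPM in mock and at 83.9, 81.4 and 72.02 CPM in Dex. Every Dex library was above every mock library, and Dex replicate 3 was the nearest to mock. The means were 59.1 ± 3.91 CPM and 79.1 ± 6.28 CPM (SD, n = 3), a log2 fold change of 0.42 ± 0.10 (SE, edgeR adjusted p = 0.0436) and a fold of 1.34 with a 95% interval of 1.14 to 1.57. This call is close to the threshold and was made in 8 of 16 alternatives, always with a higher level in Dex. It was lost with an adjusted p (edgeR) of 0.161 without mock replicate 1, 0.106 without mock replicate 3, 0.135, 0.150 and 0.0751 without Dex replicates 1, 2 and 3, and kept at 0.0153 without mock replicate 2.

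Within libraries, *BAM3* gained on *BAM1* and *CLV1* and lost ground to *BAM2*. The log2 ratio of *BAM3* to *BAM1* reads was -1.53, -1.62 and -1.46 in mock and -0.91, -0.95 and -1.05 in Dex, a difference of 0.56. Those of *BAM3* to *CLV1* and to *BAM2* differed by 0.42 and -0.55. All 3 ratios lay apart between the groups and reached the smallest exact permutation p of 0.1 (0.122 adjusted over 11 pairs). Among the PXY family the ratio of *PXL1* to *PXL2* differed by 0.97 and that of *PXY* to *PXL2* by 0.41 (exact permutation p = 0.1 each), on the reads whose limit is given above, while that of *PXY* to *PXL1* differed by -0.55 with overlapping groups (exact permutation p = 0.3). On unique reads these differences were 1.65 for *PXL1* to *PXL2* (exact permutation p = 0.1), 0.49 for *PXY* to *PXL2* (exact permutation p = 0.3) and -1.16 for *PXY* to *PXL1* (exact permutation p = 0.1).

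**Figure D3:**
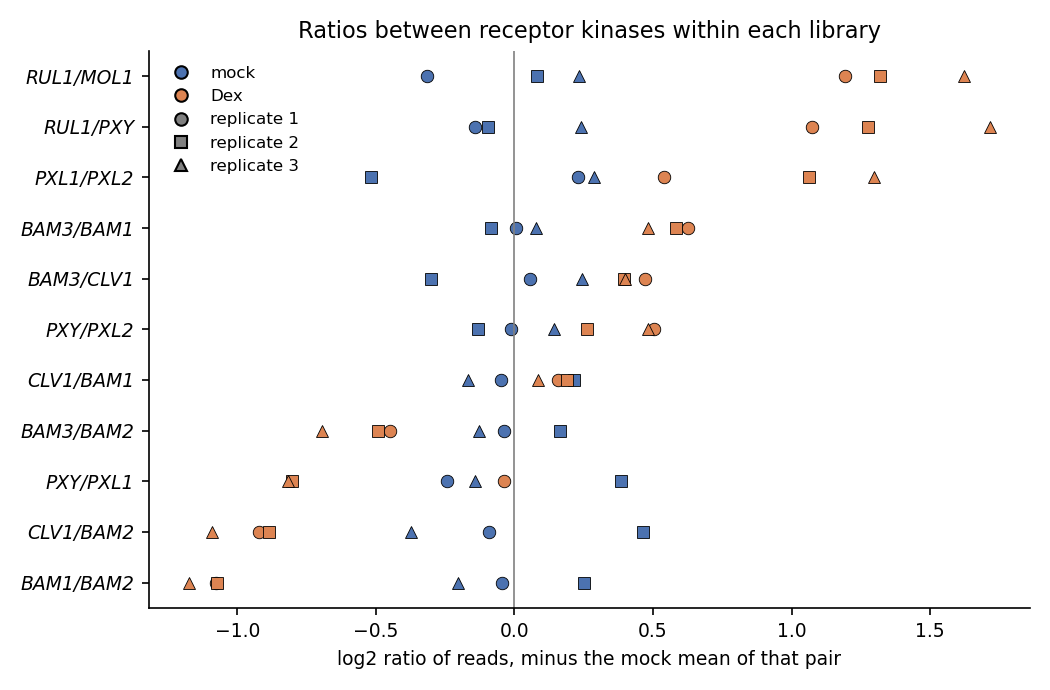
Log2 ratio of the reads of 2 genes within a library, less the mock mean of that pair (horizontal axis), for the 11 pairs compared, with colours for groups and symbols for replicates. The Dex libraries lie apart from the mock libraries in 9 pairs, farthest for *RUL1* to *MOL1* (1.38), and overlap with them for *PXY* to *PXL1* and *CLV1* to *BAM1*. Each of the 9 pairs holds *RUL1*, *BAM2*, *BAM3* or *PXL2*, whose own levels lay apart, so the pairs are not independent. Of all genes tested, 27.3% lay apart singly, and the share over other gene pairs was not computed.

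The order of levels between the genes was read from the deposited RPKM values, which are scaled by exon length. In mock, *PXY* led at 92.3 ± 16.1 RPKM (SD, n = 3), followed by *BAM1* at 47.3 ± 6.19 RPKM. *BAM3* (17.7 ± 1.53), *CLV1* (15.7 ± 4.26) and *RUL1* (15.7 ± 3.91 RPKM) came next and could not be ordered, since neither *BAM3* over *CLV1* nor *CLV1* over *RUL1* held in every mock library. They were followed by *MOL1* (8.33 ± 0.583 RPKM), *BAM2* (6.24 ± 0.498 RPKM), *PXL2* (3.25 ± 0.744 RPKM) and *PXL1* (1.05 ± 0.143 RPKM), each below the one before in all 3 mock libraries. In Dex the ends of this order were the same, with *PXY* at 87.7 ± 13.3 RPKM and *PXL1* at 1.48 ± 0.250 RPKM. In between, *RUL1* (37.5 ± 3.95 RPKM) was above *BAM3* (24.2 ± 2.44 RPKM) in all 3 Dex libraries and below *BAM1* (43.5 ± 2.19 RPKM) in 2 of 3. *BAM2* (12.4 ± 0.267 RPKM) and *MOL1* (7.82 ± 0.656 RPKM) changed places, each order holding in 3 of 3 libraries of its group. The exon lengths used were shorter than the annotated exons in TAIR10.1 for all 9 genes, most of all for *PXY* (3126 against 3732 bases) and *RUL1* (1993 against 2343 bases), which bears on RPKM levels between genes and not on folds.

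**Figure D4:**
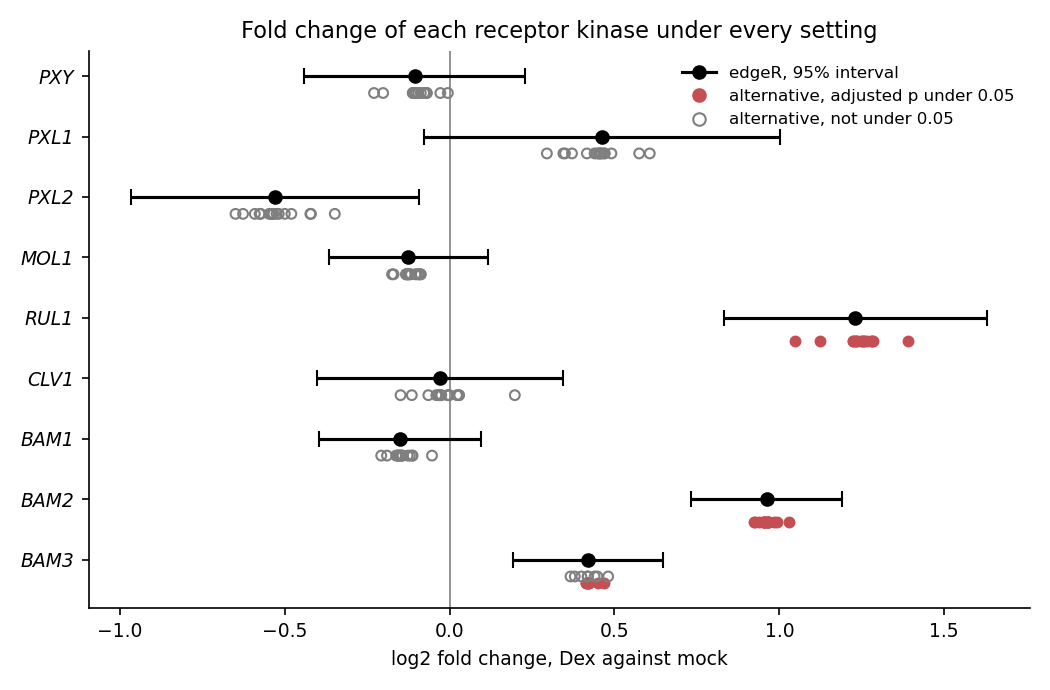
Log2 fold change of Dex against mock (horizontal axis) for each gene in the edgeR test with its 95% interval (black), and beneath it the values under all alternatives, filled where the adjusted p was under 0.05. *RUL1* and *BAM2* are filled throughout, *BAM3* in 8 of 16 alternatives, and the values of *CLV1* lie on both sides of 0.

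The depth behind these values differed widely between the genes. *PXY* had 5352 to 8479 reads per library, *BAM1* 3531 to 4981, *BAM3* 1224 to 2290 and *CLV1* 1047 to 1806. *RUL1* had 519 to 2689 reads, *MOL1* 539 to 730, *BAM2* 463 to 1363, *PXL2* 203 to 361 and *PXL1* 80 to 170. Nearly all lay on exons, with at most 8 intron reads per gene and library. Reads that span an exon junction, which come from spliced transcripts, were also more numerous in Dex for the 3 genes that rose. *RUL1* had 31, 33 and 45 junction reads in mock and 121, 90 and 112 in Dex, and *BAM3* had 23, 47 and 23 in mock and 53, 91 and 60 in Dex. *BAM2* had 25, 14 and 14 in mock and 29, 51 and 44 in Dex. In all 3 genes the lowest Dex library was above the highest mock library in junction reads, narrowly so in *BAM2* (29 against 25) and *BAM3* (53 against 47). In *PXY*, *MOL1*, *CLV1* and *BAM1* the groups overlapped. Junction reads are part of the reads tested and are not scaled to library size, and the 2 largest libraries were Dex replicates 2 and 3 (27198814 and 32099136 reads in genes). The share of all genes that lay apart in junction reads was not computed. *PXL1*, counted as a single exon, and *PXL2* had no junction reads.

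The pathways around the receptors were described with gene lists from general knowledge. Of 7 CLE ligand genes tested (of 11), 1 rose and 0 fell, where 4.63% of all genes tested rose and 2.07% fell. This was *CLE25*, a peptide gene of early phloem, which was at 9.66, 8.80 and 7.33 CPM in mock and at 19.0, 22.9 and 24.1 CPM in Dex (log2 fold change 1.35 ± 0.15, SE, edgeR adjusted p = 0.00151). It rose in all 16 alternatives. The TDIF gene *CLE41* was at 60.5 ± 5.66 CPM in mock and 74.3 ± 2.56 CPM in Dex (SD, n = 3, edgeR adjusted p = 0.117, and 0.0389 without mock replicate 2), and *CLE44*, which encodes the same peptide, at 7.15 ± 0.461 and 5.74 ± 0.443 CPM (edgeR adjusted p = 0.316). *CLV3* had no reads in any library. *CLE42* was scarce, at 0.895 ± 0.593 CPM in mock and 1.71 ± 0.503 CPM in Dex (SD, n = 3, edgeR adjusted p = 0.314). Thus *CLE41*, *CLE42* and *CLE44* gave no call. *CLE26* gave none either (log2 fold change 0.16, edgeR adjusted p = 0.743), and *CLE45* did not pass the filter on low counts.

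Among the 12 co-receptor genes, all tested, 0 passed in either direction in edgeR, DESeq2 or limma-voom (2 higher and 1 lower at an unadjusted p under 0.05). Over all genes tested, 6.69% passed in edgeR and 22.6% fell under this unadjusted value. The 2 most abundant were *BAK1*, a shared co-receptor of many such kinases, at 70.1 ± 4.55 CPM in mock and 71.0 ± 5.08 CPM in Dex, and *CIK1*, which assists CLV1 and the BAM receptors, at 70.1 ± 6.11 and 59.1 ± 3.80 CPM (SD, n = 3, edgeR adjusted p = 0.940 and 0.195). Without mock replicate 2 the count of higher genes was 2, namely *SERK5* (log2 fold change 0.63, edgeR adjusted p = 0.0424) and *CIK3* (0.37, edgeR adjusted p = 0.0350), which are named here after their values were seen.

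Of 9 genes that act downstream of PXY, 0 passed in either direction in the same 3 tests, with 0 higher and 2 lower at an unadjusted p under 0.05. These 2 of 9 are close to the share of all genes tested under this value, 22.6%. The 2 most abundant encode GSK3-type kinases, *BIN2* at 151 CPM in mock and 136 CPM in Dex and *BIL1* at 70.1 and 70.6 CPM (edgeR adjusted p = 0.397 and 0.966). The 2 lower genes, named after their values were seen, were *WOX4* (log2 fold change -0.36 ± 0.14, SE, edgeR adjusted p = 0.161) and the DOF factor gene *TMO6* (-0.34, edgeR adjusted p = 0.107). *WOX4* was at 32.0, 38.5 and 46.8 CPM in mock and at 30.6, 30.7 and 29.8 CPM in Dex, with every Dex library below every mock library. *WOX4* is on the gene list that the study drew in part from these libraries.

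In the list labelled as downstream of CLV1 and the BAM receptors, 2 of 10 genes rose and 0 fell, where 4.63% of all genes tested rose and 2.07% fell. The label is loose, since the list also holds the phloem genes *OPS*, *OPL2* and *BRX*, which are not taken here as outputs of these receptors. The count is therefore not one of receptor output. *PLL1*, a phosphatase gene related to *POLTERGEIST*, was at 20.2, 27.8 and 17.7 CPM in mock and at 44.0, 46.8 and 42.7 CPM in Dex (log2 fold change 1.02 ± 0.16, SE, edgeR adjusted p = 0.00886, and 0.0519 without Dex replicate 2). *OPL2*, a relative of the phloem gene *OCTOPUS*, was at 5.64, 6.54 and 5.73 CPM in mock and at 14.6, 12.9 and 13.8 CPM in Dex (1.20 ± 0.15, SE, edgeR adjusted p = 0.00229). In both genes the groups were far apart compared with the spread within them.

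Other receptor kinases were compared as a background for the 9. Over all genes tested, 4.63% rose, 2.07% fell and 22.6% had an unadjusted p under 0.05. Of the 3 kinase genes named for expression alongside *PXY*, 2 rose, *PXC1*, required for secondary walls of fibres, by a log2 fold change of 0.82 ± 0.12 (277 to 487 CPM, edgeR adjusted p = 0.00727) and *PXC2* by 0.66 ± 0.09 (97.7 to 154 CPM, edgeR adjusted p = 0.00517). A further list held 19 other receptor kinase genes, most but not all (*MIK2*) of subfamily XI. Of the 15 tested, 3 rose and 0 fell, with 3 higher and 1 lower at an unadjusted p under 0.05. *SKM1*, a CLE45 receptor of pollen tubes, went from 11.5 ± 1.31 to 34.7 ± 1.66 CPM (SD, n = 3, log2 fold change 1.60 ± 0.12, SE, edgeR adjusted p = 2.43e-04). *HSL1*, a CLE peptide receptor of the stomatal lineage, changed by 0.57 ± 0.10 (edgeR adjusted p = 0.0107) and *RLK7*, a receptor of immune-related peptides, by 0.86 ± 0.16 (edgeR adjusted p = 0.0172). The call of *HSL1* was lost without mock replicate 1 (edgeR adjusted p = 0.0535) and without Dex replicate 2 (0.0513). That of *RLK7* was lost without mock replicates 1 and 3 (0.0784 and 0.0570) and without Dex replicates 1 and 2 (0.0555 and 0.0733). DESeq2 called 1 gene lower, *RGI3* (log2 fold change -0.36, adjusted p = 0.0463), as did edgeR without mock replicate 2 (-0.38, adjusted p = 0.0440). Of the genes named here, *CLE25*, *PLL1*, *PXC1*, *PXC2*, *HSL1* and *SKM1* are also on the study's list.

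**Figure D5:**
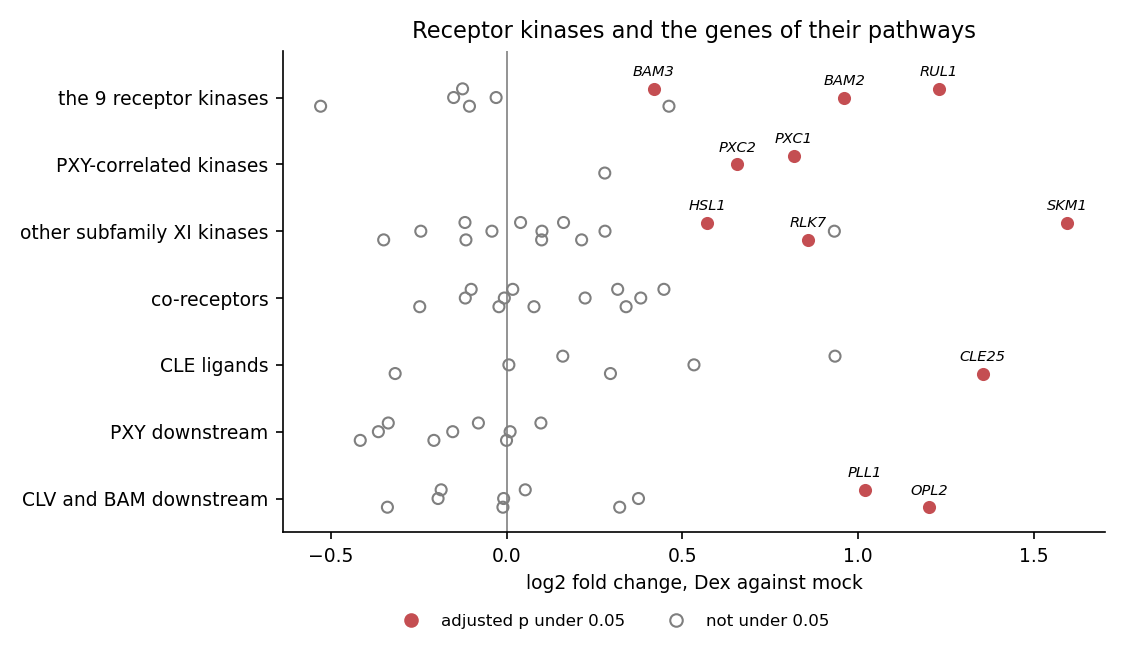
Log2 fold change of Dex against mock (horizontal axis) for each tested gene, by list, with filled points where the edgeR adjusted p was under 0.05 and names beside them. The 3 receptor kinases that rose and the 8 filled points of the other lists lie right of 0, and the points of the PXY downstream list lie between -0.42 (*BES1*) and 0.10 (*WOX14*). Of all genes tested, 4.63% passed as higher and 2.07% as lower.

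Genes with the most similar pattern over the 6 libraries were found by the root mean square difference of log2 CPM, each centred on its own mean. For *PXY* these were AT1G17145 (0.035), *AFP2* (0.048) and AT4G13550 (0.049). For *RUL1* they were *OFP2* (0.14), AT3G08030 (0.15) and *HIPP21* (0.16), for *BAM2* AT1G35560 (0.053), *GATL2* (0.054) and AT3G07540 (0.056), and for *BAM3* *ARP5* (0.030), AT4G11790 (0.037) and AT3G56510 (0.038). None of the 9 receptor kinases was among them.

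The libraries held 22871927 to 32099136 reads in genes, and reads of *ARF5* (AT1G19850), which include those of the transgene in so far as they map there, were at 231, 262 and 277 CPM in mock and at 230, 220 and 205 CPM in Dex, every Dex library below every mock library (log2 fold change -0.23, edgeR adjusted p = 0.252). Mock replicate 2 stood apart from the other 2 mock libraries. Along principal component 1 (49.4% of the variance) it was at -9.75, against -50.4 and -50.6 for the other mock libraries and 30.1 to 44.2 for Dex. The summed level of 6 markers of green cortex and epidermis was 7573 CPM in mock replicate 2, 12762 and 13817 CPM in the other mock libraries and 5941 to 8154 CPM in Dex. *RBCS1A* and *LHCB1.3* made up nearly all of this sum (3656 and 3663 CPM in mock replicate 2). The epidermis genes *FDH* and *ATML1* were at 62.0 and 9.81 CPM there, so the sum hardly reflects epidermis. Of these 6 markers 5 were tested and *PDF1* had no reads. In edgeR 0 passed and 3 were lower at an unadjusted p under 0.05, while DESeq2 called *LHCB1.3* (log2 fold change -0.69, adjusted p = 0.00877) and *CAB3* (-0.74, adjusted p = 0.0294) lower, and edgeR without mock replicate 2 called these and *RBCS1A* lower. Without this library, *RUL1*, *BAM2* and *BAM3* had log2 fold changes of 1.27, 0.93 and 0.47 (edgeR adjusted p = 0.00254, 8.16e-04 and 0.0153). The sums of 7 xylem markers (4304 to 4869 CPM in mock, 3623 to 5016 CPM in Dex) and of 6 phloem markers (459 to 534 and 454 to 475 CPM) overlapped between the groups. *CESA4*, *CESA7* and *CESA8* (means of 1532, 1236 and 1096 CPM in mock) made up most of the xylem sum. It hardly reflects *VND6* (5.79 CPM in mock and 1.14 CPM in Dex), which was called lower and is given under the other observations. Of 6 shoot apex and flower markers, 4 had no reads, *AP1* was at or near 0, and *STM*, also known from the cambium, was at 173 ± 23.2 CPM in mock and 210 ± 15.8 CPM in Dex (SD, n = 3, edgeR adjusted p = 0.218, and 0.0367 without mock replicate 2). These marker levels cannot tell a difference in tissue content from one in RNA per cell. The part of either in the results above was not tested.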

How the data were processed

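Whole second internodes of the 6 samples were profiled by RNA-seq. The authors mapped single reads of strand-marked libraries to TAIR10 with CLC Genomics Workbench, and the deposited tables give read counts for each gene (total, unique, exon and intron) and RPKM values, in which exon reads are divided by exon length and by the library's total. The use of strand in counting is not given in the sources used here. Groups came from the sample labels.

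Total gene counts were compared in edgeR 4.0.16 (R 4.3.3, quasi-likelihood fit) with TMM factors and a filter on low counts (minimum count 10, total 15), on 19347 of 33318 named entries, with Benjamini-Hochberg adjustment and a threshold of 0.05. Another 5 entries without a name (0.0803% to 0.0998% of reads) were left out. Intervals are at 95%. Alternatives were RLE factors, library totals alone, no filter, DESeq2 1.42.0, limma-voom (limma 3.58.1), unique counts, exon counts, a replicate block, each library left out, and limma on log2(RPKM + 0.5) and log2(RPKM + 0.1) with a mean RPKM of at least 0.5. The edgeR procedure was tested on simulated data. Ratios within libraries were compared by exact two-sided permutation. Coding sequences were aligned with MAFFT 7.526. Coordinates, overlaps and sequences are from TAIR10.1 (RefSeq), which holds all 9 members and 32828 of the 33316 identifiers in the tables, while the deposited tables give no coordinates.

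The members and lists were chosen with earlier results of these data known. Named are all 9 members, in each list the passing genes of smallest adjusted p (up to 4) or, where none passed, the 2 most abundant, and the 3 genes nearest in pattern to *PXY* and to each member that passed, among genes with at least 5 CPM in a group. *CLE41*, *CLE42*, *CLE44*, *CLE26*, *CLE45*, *CLV3*, *RGI3*, marker genes and genes said to be so were named outside this rule, after their values were seen.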

Additional observations from a re-analysis of the deposited data

How the results depend on the processing

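The direction and call of *RUL1* and *BAM2* were kept in all 16 and 17 alternatives, and *PXY*, *PXL1*, *PXL2*, *MOL1* and *BAM1* kept their sign and gave no call in any. The log2 fold change of *BAM3* was 0.42 with the replicate block (edgeR adjusted p = 0.0849), 0.44 and 0.45 in limma on log2(RPKM + 0.5) and log2(RPKM + 0.1) (adjusted p = 0.0682 and 0.0688), all short of the threshold, and 0.37 to 0.48 with each library left out. *CLV1* turned to 0.028 and 0.029 in these limma fits and ranged from -0.15 to 0.20 with each library left out. The cause was not tested. All 99 alternative values of the 11 pair ratios kept their sign, but some could not have changed. The replicate block leaves the difference of each pair as it was by construction. Unique reads do the same where all reads of both genes are unique. Unique reads changed the size or the exact p of the pairs with *PXL1* or *PXL2*, as given with those pairs.

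Over all genes, 1295 were called, 2299 by DESeq2 and 407 to 3477 with each library left out, the most without mock replicate 2 (1918 higher and 1559 lower). With each library left out, the calls among the receptor kinases ranged from 2 to 3, the co-receptors from 0 to 2 and the CLE ligands from 1 to 2. Those in the list labelled CLV and BAM downstream ranged from 1 to 3, and those in the list of other, mostly subfamily XI, kinases from 1 to 4. The deviations of samples that share a number correlated at -0.10, 1.74e-04 and 0.21, over 0.1 in 1 of 3 pairs, so that the numbers were not taken to pair the samples, and the replicate block left 613 higher and 261 lower genes, with *BAM3* the only call lost among the 9. Scaling alternatives moved the median log2 fold change of all genes by less than 0.1. The 80 to 170 reads of *PXL1* per library, few of them unique, limit the precision of its values.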

Other observations

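Among the marker lists, *VND6* was the only gene called by edgeR with all 6 libraries, while DESeq2 also called *LHCB1.3* and *CAB3* lower, whose values are given with the libraries. *VND6*, a NAC factor gene that promotes metaxylem vessel formation, was at 4.79, 5.76 and 6.81 CPM in mock and at 2.00, 0.623 and 0.786 CPM in Dex (log2 fold change -2.36 ± 0.43, SE, edgeR adjusted p = 0.0153). Its groups lay far apart, although the call was lost without Dex replicate 2 (edgeR adjusted p = 0.0628) and without Dex replicate 3 (0.0736). *VND7*, its protoxylem relative, was at 2.28 CPM in mock and 3.6 CPM in Dex (edgeR adjusted p = 0.245). *VND6* is on the gene list that the study drew in part from these libraries.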
